A study of Mus musculus with 16 samples.

Results

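The comparison described here set both groups of mice that ate less, pooled, against the vehicle group. RNA came from the tibialis anterior (TA), the muscle at the front of the shin, which in mice is built mainly of fast-twitch fibres. The members were chosen by label: 6 libraries of GDF15-treated mice and 5 of pair-fed mice formed the low-intake side, 5 libraries of vehicle-treated mice formed the other. These are all 16 libraries of the series, with 1 library per mouse. Each low-intake group entered the pooled difference with the same weight, so that the extra GDF15 mouse did not tilt it. From 11841 tested genes, 42 were called in the pooled comparison. All 42 had the same direction in both groups, which a call on the mean of both differences favours by itself. Of these, 37 also reached an unadjusted p under 0.05 in each group on its own. They are called the shared genes.

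All mice were wild-type males labelled C57BL/6 (C57BL/6J in the study's methods). They received a NASH diet, which produces fatty liver disease, and were kept near 29 °C from 8 weeks of age, and they were moved to single cages when the treatment groups were formed. GDF15 mice received recombinant GDF15, a stress-induced hormone that lowers appetite through its brainstem receptor GFRAL, by daily subcutaneous injection in the morning. The daily ration of the pair-fed mice was set by what GDF15 mice had consumed a day earlier, vehicle mice ate freely, and muscles were taken in the fed state. The dose behind each library, the hour of killing and the hour at which the pair-fed mice were fed are not given per library in the sources used here. In the pair-fed mice the amount and the daily timing of food, and in the GDF15 mice lower intake and the hormone itself, cannot be told apart.

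Muscle carries its own circadian clock. In this loop the activators BMAL1 (encoded by Arntl), CLOCK and NPAS2 switch on the genes of their own repressors, the PER and CRY proteins, and of output factors such as DBP, which then pass the daily rhythm on to metabolic genes. Feeding time and glucocorticoids, the adrenal hormones that rise when food is scarce, are known inputs to peripheral clocks. Reduced intake is also known in muscle for a turn towards protein and amino acid breakdown, for which the FOXO factors and the glucocorticoid receptor are textbook regulators.

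The deposited values, log2 expression that DESeq2 had variance stabilized, were turned back into normalized counts (read counts scaled for library size). The approximate depth was 11880345 to 15057580 reads in vehicle, 9502465 to 13862077 in GDF15 and 11783982 to 14768666 in pair-fed libraries. Markers of skeletal muscle fibres summed to 2082975 to 2341347 normalized counts in vehicle and 2101797 to 2575326 in low-intake libraries, and no marker gene in the table was at 0 in all libraries. Of the genes, those averaging 10 normalized counts or more entered the limma tests, on the scale of log2(normalized count + 1). A gene was called at a Benjamini-Hochberg adjusted p under 0.1 together with a log2 fold change beyond ±0.6. The added 1 makes changes of rarely read genes look smaller.

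A small set of genes separated both low-intake groups from vehicle, with clock genes among those of the smallest adjusted p. Of the 42 called genes (0.355% of those tested), 24 were higher (0.203%) and 18 lower (0.152%) in the low-intake groups. Without the fold threshold 370 genes passed (3.12%), 181 higher (1.53%) and 189 lower (1.6%). A shared gene was one that was called in the pooled comparison and differed from vehicle in the same direction in each group with an unadjusted limma p under 0.05, and 22 shared genes were higher and 15 lower. None of the 42 called genes moved in opposite directions in the groups. The same vehicle mice stand on the other side of both single comparisons, and the call was made on the mean of both differences. Each of these favours equal directions, so the agreement is largely set by the selection.

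The values of all 11 low-intake and all 5 vehicle libraries did not overlap in 72 tested genes (0.608%), of which 33 were higher (0.279%) and 39 lower (0.329%). Among the 37 shared genes this held for 11, 8 of them higher and 3 lower. The shared genes were chosen for their difference on these same values, which favours such gaps, so this count only describes them. Taken singly, GDF15 against vehicle gave 36 called genes (0.304%) and pair-fed against vehicle 97 (0.819%). Of the shared genes, 17 were called in the first, 30 in the second, 13 in both and 3 in neither. The first count was 21 without GDF15 mouse 2, 22 without vehicle mouse 2 and 23 without vehicle mouse 3, and the second was 60 without pair-fed mouse 5 or 6, 63 without mouse 2 and 157 without mouse 3. The pooled fold change exceeded 1 on the log2 scale in 13 shared genes, and 10 shared genes averaged fewer than 50 normalized counts. The division of low-intake from vehicle libraries held 9.45% of the summed squared distances between libraries over the tested genes, against a mean of 6.67% over the 4368 divisions into groups of these sizes (one-sided exact permutation test, p = 0.00321).

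The vehicle group is the smaller side, and its single mice weighed on the count. Without vehicle mouse 2 the pooled comparison gave 22 called and 22 shared genes, and without vehicle mouse 5 it gave 25 and 24. Of the main called and shared genes, these held 20 and 20 without mouse 2 and 22 and 21 without mouse 5. Of the 37 shared genes, 15 were called whichever single library was left out. On the deposited log2 values, where the transformation narrows differences between low counts, 8 genes passed both thresholds, all of them shared: Per1, Per2, Dbp, Glul, Tob2, Angptl7, Slc25a25 and Arrdc2.

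**Figure D1:**
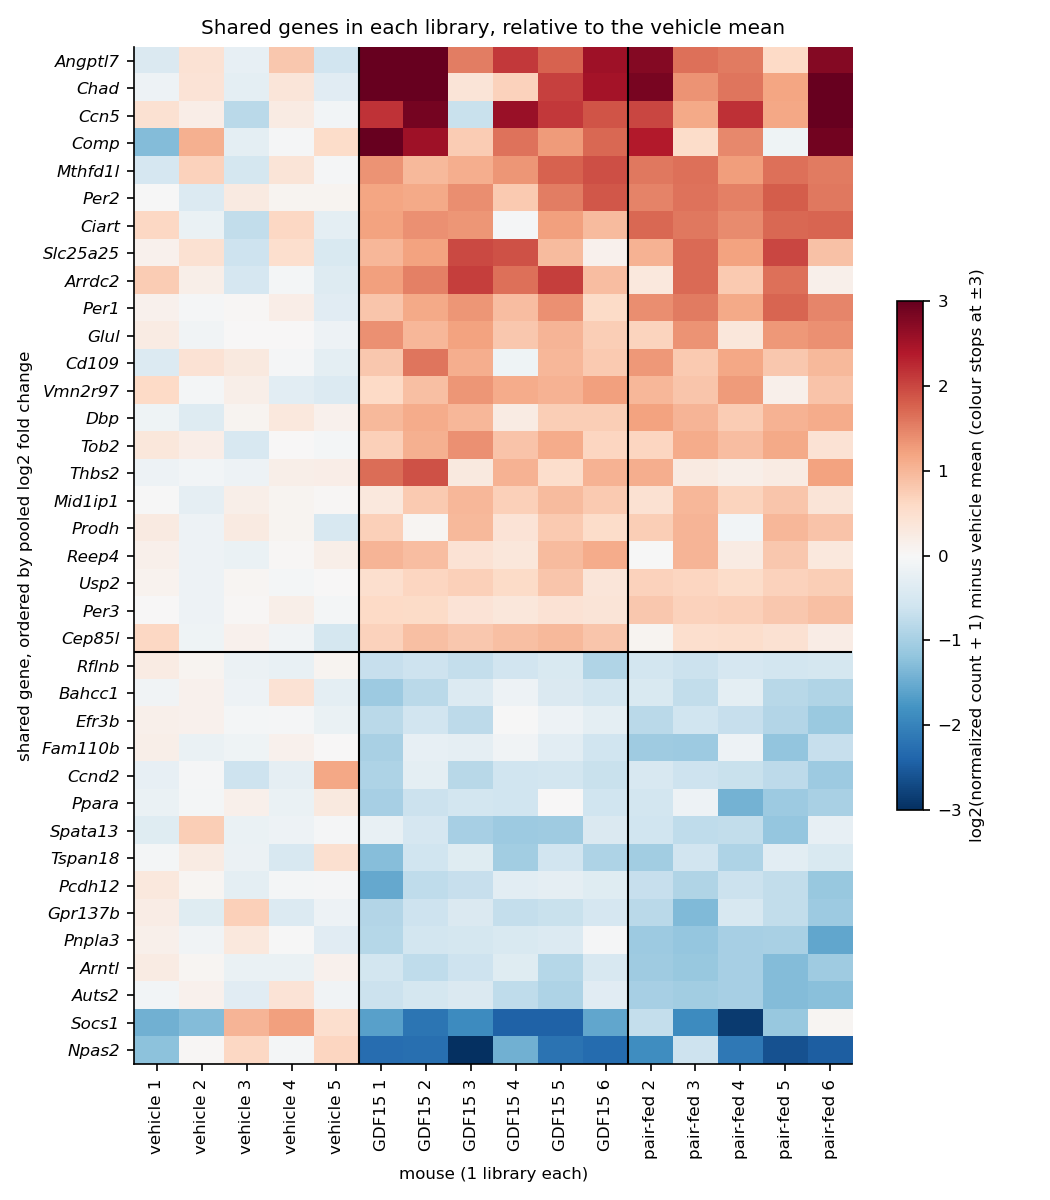
Heat map of the 37 shared genes (rows, ordered by pooled log2 fold change) in the 16 libraries (columns, by group); colour gives log2(normalized count + 1) minus the mean of the 5 vehicle libraries, red higher and blue lower, ending at ±3. The 22 higher genes are red and the 15 lower genes blue in most of the 11 low-intake columns, with single pale cells such as Ciart in GDF15 mouse 4 and Arrdc2 in pair-fed mice 2 and 6.

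By adjusted p, the strongest shared signal came from the Per repressor genes of the clock, together with Usp2. Per1, Per2 and Per3, which encode the period proteins, rose in every low-intake mouse above every vehicle mouse. Per2 (chromosome 1, 91415982 to 91459324, minus strand on GRCm38, positions from GENCODE vM21) had 88.9, 67.1, 108, 95.5 and 95.9 normalized counts in vehicle mice 1 to 5, 155 to 327 (median 223) in the 6 GDF15 mice, and 256, 282, 258, 322 and 271 in pair-fed mice 2 to 6. The lowest low-intake value thus lay above the highest vehicle value. Per2 had a pooled log2 fold change of 1.46 (95% confidence interval 1.18 to 1.75, limma adjusted p = 1.57e-05), a 2.75-fold rise on this scale.

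Per1 (chromosome 11, 69095217 to 69109960, plus strand) had 482, 433, 455, 505 and 348 normalized counts with vehicle, 658 to 1148 (median 901) with GDF15 and 1170.1, 1306, 973, 1475 and 1219.9 with pair-feeding. Its pooled log2 fold change was 1.25 (95% interval 0.99 to 1.50, limma adjusted p = 1.57e-05), with no overlap between low-intake and vehicle mice. Per1 is at the same time a direct target of the glucocorticoid receptor and stands on that list too. Per3 (chromosome 4, 151003652 to 151044665, minus strand) had 322, 285, 329.6, 361 and 304 with vehicle, 407 to 481 (median 427) with GDF15 and 558, 517, 521, 562 and 602 with pair-feeding. Here the 3 groups stood in order, vehicle below GDF15 below pair-fed, with no overlap between any of them. Pooled, Per3 rose by 0.62 on the log2 scale (SE 0.06, limma adjusted p = 1.57e-05). This value was 0.58, under the fold threshold, without vehicle mouse 2.

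Output and repressor genes outside the period family moved with them. Dbp, which encodes a PAR bZIP factor that binds D-box elements (chromosome 7, 45705088 to 45710203, plus strand), had 735, 615, 845, 995 and 882 normalized counts with vehicle, 949 to 1734 (median 1454) with GDF15 and 1849.6, 1629, 1358, 1656 and 1737 with pair-feeding. Only GDF15 mouse 4 fell within the vehicle values, and the pooled log2 fold change was 0.91 (95% interval 0.65 to 1.17, limma adjusted p = 0.000756). Ciart, which encodes a repressor of BMAL1 and CLOCK (chromosome 3, 95878503 to 95882251, minus strand), had 58.8, 32.6, 22.3, 58.2 and 30.4 with vehicle, 36.7 to 99.5 (median 89.4) with GDF15 and 127, 114, 103, 126 and 129 with pair-feeding. The lowest GDF15 value is again that of mouse 4, which also has the smallest depth of all libraries, and the other 10 low-intake mice exceeded every vehicle mouse. Pooled, Ciart rose by 1.32 on the log2 scale (limma adjusted p = 0.00816). Reads of Dbp may include those of Sphk2, whose exons overlap it on the opposite strand; the strand setting of the counting is not stated.

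The activators moved the other way. Arntl, the gene of BMAL1 (chromosome 7, 113207465 to 113314126, plus strand), had 452, 396, 329.5, 329.8 and 414 normalized counts in vehicle mice, 212 to 296 (median 253) in GDF15 mice and 183, 174, 191, 155 and 181 in pair-fed mice. Every low-intake mouse lay below every vehicle mouse and every pair-fed mouse below every GDF15 mouse. The pooled log2 fold change was -0.86 (95% interval -1.04 to -0.67, limma adjusted p = 3.48e-05). Npas2, which encodes a partner of BMAL1 that can stand in for CLOCK (chromosome 1, 39193731 to 39363236, plus strand), had 8.49, 21.8, 33.6, 20.6 and 34.2 with vehicle, 0.949 to 7.30 (median 3.67) with GDF15 and 5.14, 13.6, 4.10, 2.67 and 3.03 with pair-feeding. Its fall by 2.14 on the log2 scale (95% interval -2.96 to -1.32, limma adjusted p = 0.0115) rests on few reads per library. Vehicle mouse 1 and pair-fed mouse 3 are the pair of mice whose Npas2 values overlap. Of the 7 called clock genes, 6 kept their call with each single library left out, Per3 being the exception.

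**Figure D2:**
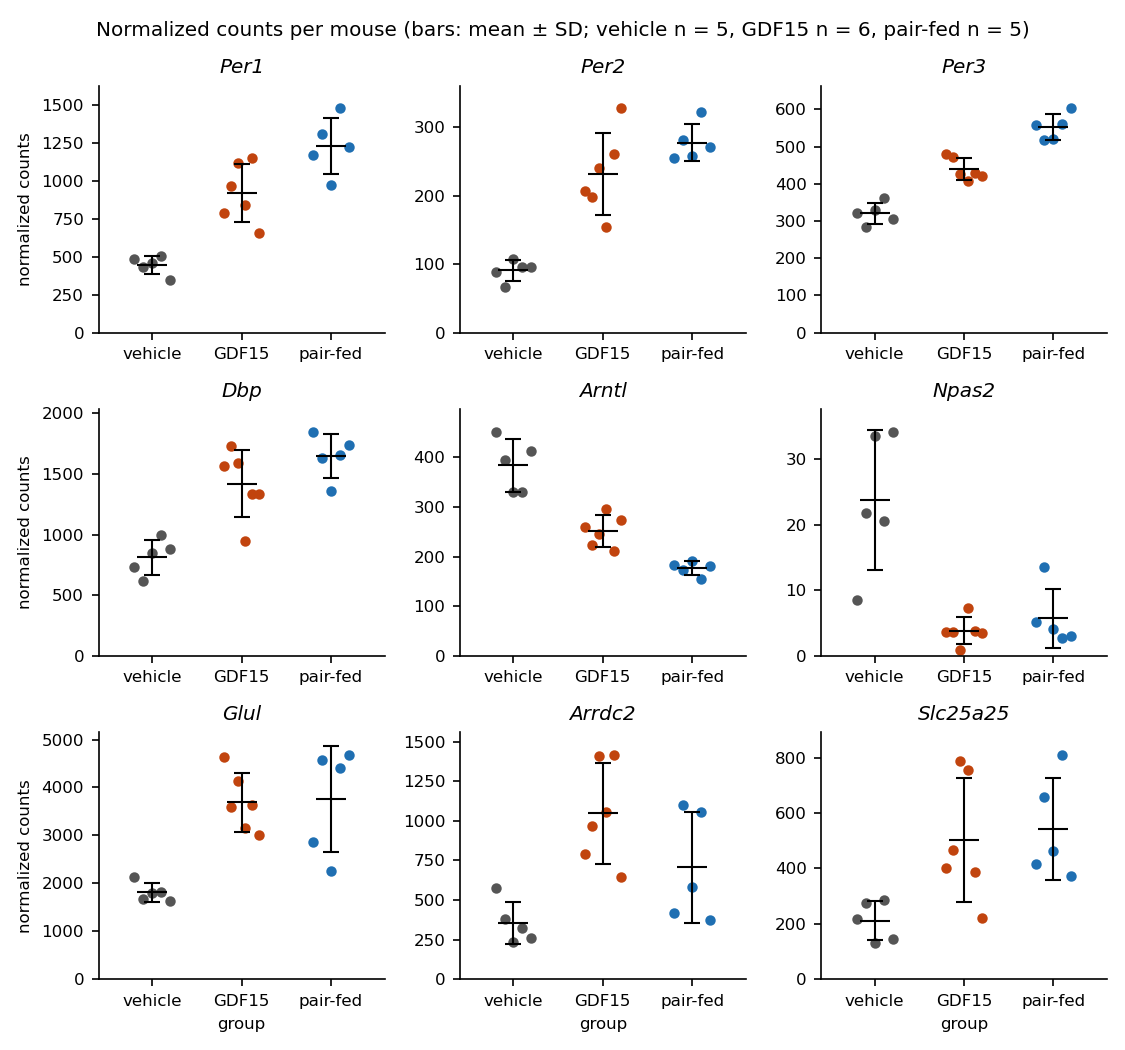
Normalized counts (vertical axes, from 0) of 6 clock genes and of Glul, Arrdc2 and Slc25a25 in each mouse, by group, with mean ± SD (vehicle n = 5, GDF15 n = 6, pair-fed n = 5). The low-intake mice lie above vehicle for Per1, Per2 and Per3 and below it for Arntl without overlap, while for Arrdc2 and Slc25a25 some low-intake mice lie within the vehicle range.

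Of the 22 tested genes of the clock list, 5 were called higher and 2 lower, against 0.355% of all tested genes in both directions, and by adjusted p alone 10 were higher and 4 lower, beside 1.53% and 1.6% of all tested genes. The median pooled log2 fold change of the list was 0.15, beside 0.00 over all tested genes. Below the fold threshold, the repressor gene Cry2 rose by 0.50 on the log2 scale (limma adjusted p = 0.00207), the PAR bZIP genes Hlf by 0.58 and Tef by 0.25, and Bhlhe41, which encodes the repressor DEC2, by 0.40. Clock fell by 0.42 (limma adjusted p = 0.00546). The genes of the REV-ERB receptors, which repress Arntl, split: Nr1d1 had a log2 fold change of -0.30 and Nr1d2 of 0.16, with adjusted p-values of 0.0728 and 0.0215 from limma. Cry1 differed by -0.03 when pooled (95% interval -0.21 to 0.14) and was 1 of 8 clock genes that did not pass, among them also the casein kinase genes Csnk1d (0.07) and Csnk1e (0.15).

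Promoters are shown for the called clock genes that hold a clock motif near an annotated start. Of these, Ciart, Per1 and Per3 were higher and Arntl was lower in the low-intake groups. They are RefSeq sequences on GRCm38.p6, 5′ to 3′ on the strand of the gene, 250 bases before to 50 after an annotated start, in lower case with the motif in capitals. The motifs searched, on both strands, were the E-box CACGTG bound by BMAL1 with CLOCK or NPAS2, the D-box TTANGTAA bound by DBP, and the ROR element TAGGTCA bound by the REV-ERB and ROR receptors. No matches overlapped in the promoters shown.
Ciart (chr3:95882179-95882478, minus strand), 3 E-boxes: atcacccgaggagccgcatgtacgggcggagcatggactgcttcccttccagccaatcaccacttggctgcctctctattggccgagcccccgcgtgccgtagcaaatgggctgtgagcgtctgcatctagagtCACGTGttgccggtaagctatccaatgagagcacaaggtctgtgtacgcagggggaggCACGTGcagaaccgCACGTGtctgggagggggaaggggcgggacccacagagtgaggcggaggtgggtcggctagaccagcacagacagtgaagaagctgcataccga
Per1 (chr11:69098699-69098998, plus strand), 1 E-box: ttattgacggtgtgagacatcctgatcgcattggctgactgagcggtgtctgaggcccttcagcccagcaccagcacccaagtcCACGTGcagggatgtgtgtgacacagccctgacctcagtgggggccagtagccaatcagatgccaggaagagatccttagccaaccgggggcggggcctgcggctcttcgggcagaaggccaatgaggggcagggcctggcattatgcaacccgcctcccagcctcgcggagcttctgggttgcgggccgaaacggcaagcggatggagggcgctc
Per3 (chr4:151044616-151044915, minus strand), 2 D-boxes: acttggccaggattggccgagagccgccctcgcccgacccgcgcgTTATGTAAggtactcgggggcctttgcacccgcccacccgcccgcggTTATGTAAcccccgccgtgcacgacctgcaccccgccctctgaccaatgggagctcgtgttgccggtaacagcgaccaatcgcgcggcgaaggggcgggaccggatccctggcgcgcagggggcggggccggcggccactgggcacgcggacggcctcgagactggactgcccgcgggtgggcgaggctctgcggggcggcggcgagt
Arntl (chr7:113207261-113207560, plus strand), 1 ROR element: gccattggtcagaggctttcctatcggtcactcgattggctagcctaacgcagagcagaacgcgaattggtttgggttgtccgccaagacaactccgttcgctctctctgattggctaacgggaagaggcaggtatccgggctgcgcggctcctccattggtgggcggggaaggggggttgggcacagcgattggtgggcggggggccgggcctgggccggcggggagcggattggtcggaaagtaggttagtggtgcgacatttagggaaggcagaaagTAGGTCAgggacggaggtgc

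A promoter was found for 26 of the 37 shared genes, and Per2 and Auts2 are among those without an entry. In the Ciart promoter the E-boxes began at -116, -58 and -44 from the start, and in Per1 the E-box began at -166. None of the motifs was found in the promoters of the called clock genes Dbp and Npas2. The other annotated starts of Per1 and Arntl held none either. The E-box was held by 7.15% of all promoters in the RefSeq table, by 10.1% of those of tested genes and by 6.45% of those of shared genes (Ciart and Per1), so it was no more common in the shared genes. The D-box was held by 2.32% of all promoters, by 1.43% of those of tested genes and by 6.45% of those of shared genes, which are 2 promoters, of Per3 (at -205 and -158) and Slc25a25 (at -32). The ROR element was held by 2.61% of all promoters, by 1.80% of those of tested genes and by 6.45% of those of shared genes, again 2 promoters, of the lower gene Arntl, 30 bases after the start, and the higher gene Glul, at -58. A match of letters is a description and not a measured site.

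Glucocorticoid-responsive genes were the next group with several shared members. Glul, which encodes glutamine synthetase, the enzyme that fixes ammonia into glutamine for export from muscle (chromosome 1, 153899944 to 153909723, plus strand), had 2137, 1672, 1805, 1817 and 1620.4 normalized counts with vehicle, 2997 to 4641 (median 3616) with GDF15 and 2865, 4578, 2263, 4404 and 4679.8 with pair-feeding. All 11 low-intake mice exceeded all vehicle mice, although pair-fed mice 2 and 4 stood well below the other 3 pair-fed mice. The pooled log2 fold change was 1.01 (95% interval 0.70 to 1.32, limma adjusted p = 0.00176), a 2.01-fold rise, and the values of the groups taken singly, 1.02 for GDF15 and 1.00 for pair-feeding, were nearly equal.

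Arrdc2, which encodes an arrestin-domain protein (chromosome 8, 70835129 to 70839720, minus strand), had 573, 378, 237, 324 and 258 with vehicle, 642 to 1417 (median 1012) with GDF15 and 419, 1103, 580.5, 1054 and 375 with pair-feeding. The 6 GDF15 mice all exceeded the vehicle mice, whereas pair-fed mice 2 and 6 fell within the vehicle range. Its pooled log2 fold change was 1.25 (95% interval 0.70 to 1.80, limma adjusted p = 0.0255).

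Of 18 tested genes on the glucocorticoid list, 3 were called, all higher (Glul, Arrdc2 and Per1), and 7 were higher and 0 lower by adjusted p alone, beside 1.53% and 1.6% of all tested genes. The median of the list was 0.29 in the pooled comparison, 0.28 for GDF15 and 0.28 for pair-feeding. Tsc22d3, which encodes GILZ, rose by 0.34 on the log2 scale (limma adjusted p = 0.00816), the transcription factor genes Klf15 by 0.38 and Klf9 by 0.22, and Cebpb by 0.33. Some classical targets did not pass when pooled. Fkbp5, for a co-chaperone of the receptor, had a log2 fold change of 0.80 with GDF15 and -0.14 with pair-feeding, and this difference of 0.94 between the groups passed (limma adjusted p = 0.0155). The metallothionein gene Mt2 had 0.59 pooled (95% interval 0.17 to 1.01), 0.95 with GDF15 and 0.24 with pair-feeding, and Zbtb16 had -0.20 pooled (95% interval -0.51 to 0.12). Nr3c1, the gene of the receptor, differed by -0.10 (95% interval -0.18 to -0.02).

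Further higher genes encode a transporter and enzymes. Slc25a25, named after its values were seen, encodes a calcium-regulated mitochondrial carrier of ATP-Mg and phosphate (chromosome 2, 32414487 to 32451445, minus strand) and had 218, 275, 131, 285 and 146 normalized counts with vehicle, 219.7 to 790.3 (median 435) with GDF15 and 415, 657, 462, 811 and 372 with pair-feeding. Among the low-intake mice 10 of 11 exceeded the highest vehicle value, GDF15 mouse 6 being the exception, and the pooled log2 fold change was 1.28 (95% interval 0.72 to 1.84, limma adjusted p = 0.0247). Its exons overlap Naif1 on the opposite strand.

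Usp2, the gene of a deubiquitinase with rhythmic expression in many tissues (chromosome 9, 44067021 to 44095627, plus strand), had 2423, 2029.6, 2342, 2153 and 2272 with vehicle, 2862 to 3975 (median 3407) with GDF15 and 3635, 3483, 3294, 3632 and 3743 with pair-feeding. The spread within each group was small, low-intake and vehicle values did not overlap, and the pooled log2 fold change of 0.63 (SE 0.06, limma adjusted p = 1.57e-05) stood just above the threshold; without vehicle mouse 2 it was 0.599. Mthfd1l, the gene of a mitochondrial folate enzyme that releases formate (chromosome 10, 3973118 to 4167081, plus strand), had 3.13, 8.35, 3.02, 6.67 and 4.65 with vehicle, 10.5 to 21.2 (median 13.7) with GDF15 and 16.5, 17.5, 13.0, 17.2 and 16.3 with pair-feeding. Here too low-intake and vehicle values did not overlap, at few reads per library. Its pooled log2 fold change was 1.48 (95% interval 0.97 to 1.99, limma adjusted p = 0.00546).

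Mid1ip1, whose protein promotes the assembly of acetyl-CoA carboxylase (chromosome X, 10715013 to 10719690, plus strand), had 264 to 362 (median 330.0) normalized counts with vehicle, 399 to 638 (median 552) with GDF15 and 421 to 636 (median 509.8) with pair-feeding. It rose by 0.71 on the log2 scale (limma adjusted p = 0.00291). For Tob2, of the antiproliferative BTG/Tob family (chromosome 15, 81848272 to 81858796, minus strand), the ranges were 464 to 818 (median 646), 1007 to 1679.7 (median 1259) and 868 to 1418 (median 1218), and the fold change was 0.91 (limma adjusted p = 0.00291). For both genes the low-intake and the vehicle values did not overlap. Exons of Usp2, Mid1ip1, Tob2, Glul and Arntl also overlap other annotated transcripts on the opposite strand, as do those of Efr3b, Ccnd2 and Hmcn1 among the lower genes. Pnpla3 and Bahcc1 share exons with another transcript on their own strand. A part of the reads could belong to these.

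The remaining higher shared genes outside the matrix group were named after their values were seen and had pooled log2 fold changes of 0.61 for Cep85l, 0.64 for Prodh, the gene of proline dehydrogenase, 0.64 for Reep4, 0.93 for Cd109 and 0.93 for Vmn2r97. Vmn2r97 belongs to a large family of vomeronasal receptor genes with near-identical copies, so its 5.84 to 12.9 normalized counts in vehicle and 9.19 to 22.0 in low-intake mice may come from relatives. Cep85l overlaps Pln and Gm47641 on the opposite strand. The call was lost when any 1 of 8 libraries was left out for Cep85l (vehicle mice 2, 4 and 5, GDF15 mice 2 and 5 and pair-fed mice 3, 4 and 5; log2 fold change 0.48 to 0.76), and of 11 for Prodh (vehicle mice 1, 2, 3, 4 and 5, GDF15 mice 1, 3 and 6 and pair-fed mice 2, 5 and 6; 0.52 to 0.74). The same held for 12 libraries in Reep4 (vehicle mice 1, 2, 3, 4 and 5, GDF15 mice 1, 2, 5 and 6 and pair-fed mice 3, 5 and 6; 0.57 to 0.70), 8 in Cd109 (vehicle mice 1, 3, 4 and 5, GDF15 mouse 2 and pair-fed mice 2, 5 and 6; 0.83 to 1.04) and 3 in Vmn2r97 (vehicle mice 2, 4 and 5; 0.82 to 1.08).

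The 4 largest pooled rises, those of Angptl7, Chad, Ccn5 and Comp, belonged to genes of secreted proteins, most of them of the matrix. Angptl7, which encodes an angiopoietin-like secreted protein (chromosome 4, 148495183 to 148500460, minus strand), had 18.4, 34.7, 21.0, 45.0 and 16.8 normalized counts with vehicle, 74.5 to 486 (median 132) with GDF15 and 176, 81.7, 76.3, 38.9 and 176 with pair-feeding. All low-intake mice but pair-fed mouse 5 exceeded the highest vehicle value, and GDF15 mice 1 and 2 stood far above the others. Its pooled log2 fold change was 2.24 (95% interval 1.37 to 3.10, limma adjusted p = 0.0121).

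Chad, the gene of chondroadherin, a cartilage and tendon matrix protein (chromosome 11, 94565047 to 94569127, plus strand), had 17.5, 26.2, 15.8, 25.3 and 15.14 with vehicle, 25.7 to 339 (median 99.1) with GDF15 and 147, 51.2, 61.3, 45.6 and 220.4 with pair-feeding. The pooled log2 fold change was 2.12 (limma adjusted p = 0.0427). Comp, the gene of cartilage oligomeric matrix protein, had 10.3, 57.6, 21.6, 26.4 and 39.9, 45.9 to 289 (median 87.9) and 145, 40.1, 74.3, 24.4 and 206 in the same order of groups, with 1.66 (limma adjusted p = 0.0966). In both genes the highest 4 values were those of GDF15 mice 1 and 2 and pair-fed mice 2 and 6. For Ccn5, of the CCN matrix-associated family, the pooled log2 fold change was 1.88 at 2.00 to 6.31 normalized counts with vehicle, and for Thbs2, which encodes thrombospondin 2, it was 0.84 (limma adjusted p = 0.0567 and 0.0846). These 5 genes were grouped after their values were seen.

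Tendon markers were highest in the libraries where Angptl7, Chad, Comp and Thbs2 were highest, which did not hold for Ccn5. The list Tnmd, Scx, Mkx, Fmod, Thbs4 and Kera, also drawn up after the values were seen, summed to 1264 to 1769 normalized counts in vehicle, 1766 to 5091 in GDF15 and 1094 to 3733 in pair-fed libraries, and 0 of its 6 genes were at 0 throughout. The highest sums were 5091 in GDF15 mouse 1, 3733 in pair-fed mouse 2, 3018 in GDF15 mouse 2 and 2954 in pair-fed mouse 6. Of the 5 tested tendon genes, 4 had a positive pooled log2 fold change, with a median of 0.30, and 0 passed the adjusted p. Without these 4 libraries the pooled comparison gave 24 called and 23 shared genes, among them 20 of the main 42 and 19 of the main 37. Angptl7 still had a log2 fold change of 1.63 (limma adjusted p = 0.0189) and Chad of 1.39 (limma adjusted p = 0.0815). Ccn5, Thbs2 and Comp had 1.48, 0.48 and 0.98 and no longer passed. With the mean log2 level of the tendon markers as a covariate Angptl7 alone of the 5 passed, with 1.69 (limma adjusted p = 0.0349) and Chad with 1.38 did not (limma adjusted p = 0.106). In bulk RNA, more cells of a type and more RNA per cell cannot be told apart, and the same holds for fewer and less. With single libraries left out, Angptl7 kept its call throughout, Chad lost it without vehicle mice 3 and 5 (1.93 to 2.30) and Ccn5 without vehicle mice 2, 3 and 5 (1.68 to 2.13). Thbs2 lost it without any 1 of 9 libraries (vehicle mice 1, 2, 3, 4 and 5, GDF15 mice 1 and 6 and pair-fed mice 2 and 6; 0.76 to 0.92) and Comp without any 1 of 12 (vehicle mice 1, 2, 3, 4 and 5, GDF15 mice 1, 2, 4 and 6 and pair-fed mice 2, 4 and 6; 1.33 to 1.92).

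**Figure D3:**
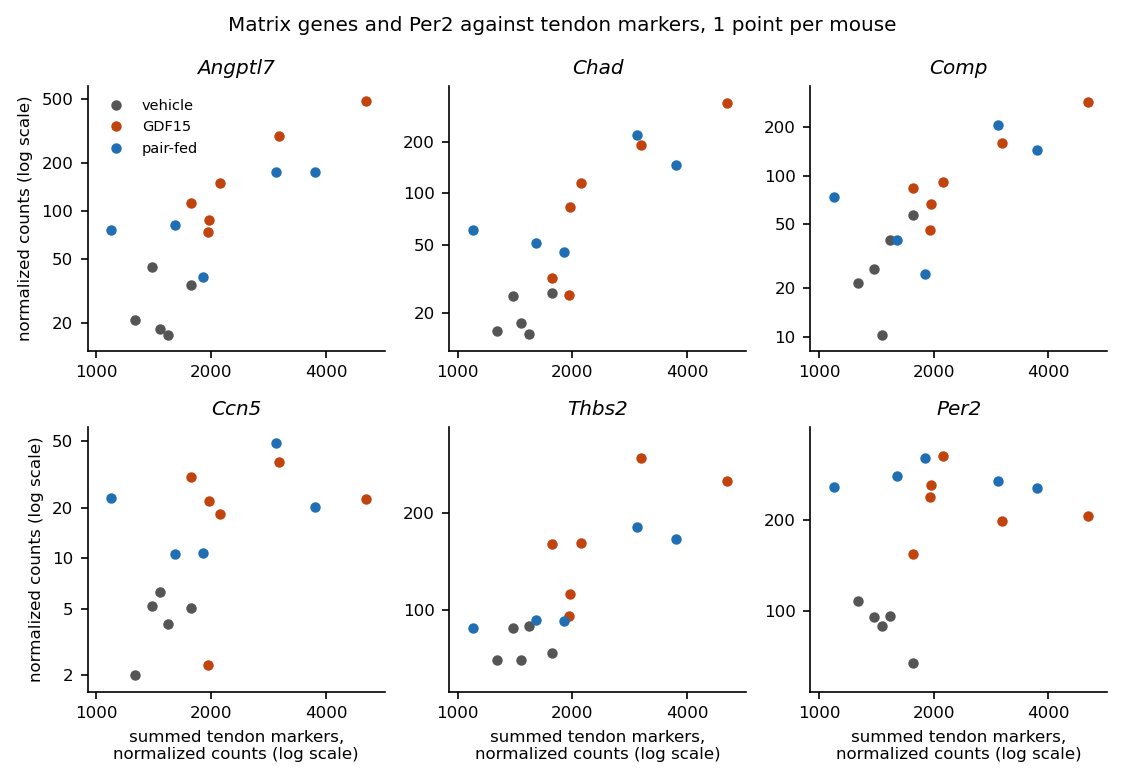
Normalized counts of 5 matrix genes and of Per2 (vertical axes, log scale) against the summed tendon markers of the same library (horizontal axes, log scale), 1 point per mouse, coloured by group. The GDF15 and pair-fed mice with the 4 highest tendon sums (2954 and above) carry the highest Angptl7, Chad and Comp values, while Per2 lies higher in all low-intake mice than in the vehicle mice.

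Genes of fat use lay slightly to the lower side, and few of them passed the test. Ppara, which encodes the nuclear receptor PPARα that turns on fatty acid oxidation genes (chromosome 15, 85734983 to 85802819, plus strand), had 63.1, 68.7, 79.99, 62.7 and 89.1 normalized counts with vehicle, 35.6 to 72.9 (median 47.4) with GDF15 and 48.7, 64.6, 26.3, 33.2 and 36.3 with pair-feeding. The pooled log2 fold change was -0.70 (95% interval -1.09 to -0.31, limma adjusted p = 0.0728), and 9 of 11 low-intake mice lay below the lowest vehicle mouse. The call was lost when any 1 of 6 libraries was left out (vehicle mice 1, 2, 3 and 5 and pair-fed mice 5 and 6), with log2 fold changes of -0.78 to -0.62 and adjusted p-values of up to 0.181 from limma.

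On the list of fatty acid uptake and oxidation all 35 tested genes had a negative pooled log2 fold change, with a median of -0.26 (GDF15 -0.23, pair-fed -0.30) beside 0.00 over all tested genes. Of these, 1 was called (Ppara) and 4 passed the adjusted p alone, all lower, which is 11.4% of the list beside 3.12% of all tested genes. The others were Decr1 with -0.38, the carnitine carrier gene Slc25a20 with -0.30 and Acadvl, for very-long-chain acyl-CoA dehydrogenase, with -0.30 (limma adjusted p = 0.0887, 0.0966 and 0.0964). Larger differences with wider intervals did not pass: Angptl4 had -0.79 (95% interval -1.37 to -0.21) and Pdk4, which holds back pyruvate oxidation, -0.65 (95% interval -1.10 to -0.20). The muscle carnitine palmitoyltransferase gene Cpt1b had -0.19 (95% interval -0.33 to -0.04). In the respiratory chain and TCA cycle list 36 of 37 genes were on the lower side with a median of -0.09, and 2 passed, Cycs with -0.22 and Cox7a1 with -0.18 (limma adjusted p = 0.0284 and 0.0626). That list summed to 345513 to 367377 normalized counts in vehicle and 302472 to 363837 in low-intake libraries, which thus overlapped. Its dependence on the libraries highest in tendon markers was not tested. Genes of one pathway are not independent of each other, and 35 genes on 1 side are not 35 observations.

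The fatty acid genes differed widely between low-intake mice. The tested genes of the list summed to 125614 to 150035 normalized counts in vehicle, 87260.3 to 137827 in GDF15 and 79520.1 to 123279.6 in pair-fed libraries, so that GDF15 and vehicle mice overlapped. Against the vehicle mean, the median log2 difference over the 35 genes was -0.58 in pair-fed mouse 2, -0.51 in GDF15 mouse 1, -0.49 in pair-fed mouse 6 and -0.40 in GDF15 mouse 6, whereas the other 7 low-intake mice lay between -0.27 and 0.03. The lowest 3 of these mice are among the 4 libraries highest in tendon markers. Without those 4 libraries the pooled median of the list was -0.13 and 34 of 35 genes were on the lower side, and with the tendon covariate these values were -0.14 and 33, with 0 genes past the adjusted p either time. Ppara itself had -0.66 and -0.70 there (limma adjusted p = 0.2 and 0.168). With single libraries left out, the median stayed between -0.30 and -0.22, but the number past the adjusted p ran from 0 to 10. It was 0 without vehicle mouse 1, 2, 3 or 5 or pair-fed mouse 5 or 6, 1 without vehicle mouse 4, GDF15 mouse 1, 2 or 6 or pair-fed mouse 2, 7 without pair-fed mouse 4 and 10 without pair-fed mouse 3.

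Pnpla3, whose product remodels lipid droplets and whose transcript falls on fasting in liver (chromosome 15, 84167837 to 84187236, plus strand), had 43.6, 36.5, 48.7, 38.7 and 31.0 normalized counts with vehicle, 21.4 to 38.5 (median 27.7) with GDF15 and 17.99, 17.01, 19.2, 19.5 and 12.7 with pair-feeding. Only GDF15 mouse 6 fell within the vehicle range, and the pooled log2 fold change was -0.81 (95% interval -1.15 to -0.48, limma adjusted p = 0.0162). The lists of fatty acid synthesis (18 tested) and cholesterol synthesis (19 tested) held 0 genes that passed, with medians of -0.05 and -0.01.

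Of the 15 lower shared genes, Pcdh12 and Tspan18 are set together here, after their values were seen, because both are known from endothelium. Pcdh12, which encodes an endothelial protocadherin, had 235, 197, 153, 181 and 185 normalized counts with vehicle, 64.1 to 156 (median 132) with GDF15 and 116, 101, 121, 113 and 85.5 with pair-feeding. Pcdh12 fell by 0.74 on the log2 scale (95% interval -1.08 to -0.39, limma adjusted p = 0.0348). Tspan18, a tetraspanin gene expressed in endothelium (chromosome 2, 93201760 to 93334505, minus strand), had 62.9, 77.3, 57.3, 46.1 and 90.9, 26.1 to 50.5 (median 38.4) and 31.1, 43.2, 33.7, 51.8 and 47.0. Its pooled log2 fold change was -0.73 (limma adjusted p = 0.0544). Most low-intake mice, 10 of 11 for Pcdh12 and 8 of 11 for Tspan18, lay below the lowest vehicle mouse. Kdr, the gene of VEGF receptor 2, had 1102, 1275, 1266, 1268 and 1237 with vehicle, 653 to 928 (median 790.0) with GDF15 and 796, 867, 1065, 807 and 833 with pair-feeding. It fell by 0.58 on the log2 scale, just short of the fold threshold (limma adjusted p = 0.000591).

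All 6 endothelial markers had a negative pooled log2 fold change (median -0.16), and Kdr alone passed the adjusted p; Pecam1 had -0.13 (95% interval -0.25 to -0.02) and Cdh5 -0.19 (95% interval -0.33 to -0.06). The list summed to 5033 to 5994 normalized counts in vehicle, 4233 to 5272 in GDF15 and 4424 to 5283 in pair-fed libraries. The lowest sums were 4233 and 4547 in GDF15 mice 1 and 2 and 4424 and 4470 in pair-fed mice 6 and 2. These are the 4 libraries highest in tendon markers. The genes of the basement membrane collagens of vessels and fibres fell too, Col4a1 by 0.45 and Col4a2 by 0.42 (limma adjusted p = 0.029 and 0.0345). They were among 4 genes of the extracellular matrix list that were lower by adjusted p, with 0 higher of 28 tested, beside 1.6% lower and 1.53% higher of all tested genes. Col5a3 had -0.44 and the collagen chaperone gene Serpinh1 -0.26. The median of this list was 0.00 with GDF15 and -0.21 with pair-feeding, and the difference between these medians was not tested. The part of endothelial content, whose list sums are given above, in the falls of Pcdh12 and Tspan18 was not tested. Pcdh12 lost its call without vehicle mouse 1 (-0.81 to -0.65) and Tspan18 without vehicle mice 1, 2 and 5 (-0.85 to -0.61).

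The other lower genes have scattered roles. Auts2, which encodes a regulator of transcription linked to Polycomb complexes (chromosome 5, 131437333 to 132543344, minus strand), had 416, 484, 351, 595 and 410.1 normalized counts with vehicle, 231 to 353 (median 295) with GDF15 and 221, 214, 221, 180.3 and 185 with pair-feeding. It had a pooled log2 fold change of -0.86 (95% interval -1.10 to -0.63, limma adjusted p = 0.000591). Its values fell in steps from vehicle to GDF15 to pair-fed mice, with GDF15 mouse 6 overlapping the vehicle range. Rflnb, the gene of the filamin-binding protein refilin B (chromosome 11, 76019194 to 76027782, minus strand), had 405, 361, 304, 294 and 364, 184 to 251 (median 217) and 235, 219, 243, 234 and 239, without overlap between low-intake and vehicle mice. Its log2 fold change of -0.60 (limma adjusted p = 0.000591) lay at the threshold and crossed it without any 1 of 7 libraries (vehicle mice 1, 2 and 5, GDF15 mice 1, 3 and 6 and pair-fed mouse 3; -0.66 to -0.54).

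Efr3b, whose product anchors a phosphatidylinositol 4-kinase at the plasma membrane (chromosome 12, 3962554 to 4038915, minus strand), had a pooled log2 fold change of -0.63, Gpr137b, for a lysosomal membrane protein (chromosome 13, 13357620 to 13394014, minus strand), of -0.76, and Bahcc1, for a chromatin reader (chromosome 11, 120232947 to 120292296, plus strand), of -0.60 (limma adjusted p = 0.0199, 0.0483 and 0.0533). Gpr137b was the lower gene next to Arntl and Rflnb without overlap between low-intake and vehicle mice, at 37.4 to 82.7 normalized counts with vehicle and 19.4 to 36.6 with low intake. Leaving out single libraries ended the call of Efr3b for vehicle mice 1 and 2, GDF15 mice 1 and 3 and pair-fed mouse 6 (-0.68 to -0.59), of Gpr137b for vehicle mice 1 and 3 (-0.86 to -0.58) and of Bahcc1 for vehicle mice 2 and 4, GDF15 mice 1 and 2 and pair-fed mice 3, 5 and 6 (-0.68 to -0.50). Spata13, Fam110b and Ccnd2, named after their values were seen, had -0.71, -0.63 and -0.69. Their calls were lost without any 1 of 5 libraries for Spata13 (vehicle mice 2, 3, 4 and 5 and pair-fed mouse 5; -0.80 to -0.52), 10 for Fam110b (vehicle mice 1, 2, 3, 4 and 5, GDF15 mice 1 and 6 and pair-fed mice 2, 3 and 5; -0.71 to -0.57) and 14 for Ccnd2 (vehicle mice 1, 2, 4 and 5, GDF15 mice 1, 2, 3, 4, 5 and 6 and pair-fed mice 2, 4, 5 and 6; -0.84 to -0.40). Ccnd2, which encodes cyclin D2, was at 500.3 normalized counts in vehicle mouse 5 and at 145 to 217 in the other 4 vehicle mice.

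Socs1, the gene of a cytokine-induced brake on JAK-STAT signalling (chromosome 16, 10782240 to 10785536, minus strand), had 8.79, 9.69, 52.2, 61.4 and 36.2 normalized counts with vehicle, 3.88 to 7.94 (median 5.46) with GDF15 and 15.16, 6.16, 2.61, 11.1 and 26.5 with pair-feeding. Vehicle mice 1 and 2 were low, and pair-fed mouse 6 was high, so that the groups overlapped. The pooled log2 fold change was -1.67 (95% interval -2.67 to -0.67, limma adjusted p = 0.0941). The call was lost without any 1 of 13 libraries (vehicle mice 3, 4 and 5, GDF15 mice 1, 2, 3, 4, 5 and 6 and pair-fed mice 2, 3, 4 and 5), with log2 fold changes of -2.02 to -1.36. It was the member called on the list of growth hormone, IGF and insulin signalling (22 tested, 1 lower and 0 higher by adjusted p, median -0.07), beside 0.355% called and 1.6% lower over all tested genes, and a single gene says little about the list. The related brake Socs3 had -0.67 (95% interval -1.33 to -0.01) and did not pass. Cish, another gene of this family, did not move the same way in the groups: it had a log2 fold change of -3.76 against vehicle with GDF15 and of 0.61 with pair-feeding, and the groups differed by -4.37 (limma adjusted p = 0.00243).

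Both groups are set side by side here against the same vehicle mice. The difference from vehicle was the larger one in pair-fed mice for 21 of the 37 and in GDF15 mice for 16. Between GDF15 and pair-fed mice, 257 of all tested genes differed by adjusted p alone (2.17%), and 4 of the 37 shared genes did. Against vehicle, Per3 had a log2 fold change of 0.46 with GDF15 and 0.79 with pair-feeding, and the difference of -0.33 had an adjusted p of 0.0297 from limma. Arntl had -0.61 and -1.11, a difference of 0.50 (limma adjusted p = 0.0276). Auts2 had -0.60 and -1.12, a difference of 0.52, and Pnpla3 -0.47 and -1.15, a difference of 0.68 (limma adjusted p = 0.0577 and 0.0789). In these 4 genes the shift was thus larger with pair-feeding. Without the 4 libraries highest in tendon markers 0 shared genes differed in this way, and without GDF15 mouse 2 or 3 or pair-fed mouse 2, 5 or 6 in turn 2 did. With log2 depth as a covariate 1 did, and on the deposited log2 values 0 did.

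For the other shared genes the difference between the groups did not pass, which does not show that they are equal. The interval of the difference was -0.62 to 0.03 on the log2 scale for Per2, -0.72 to -0.15 for Per1, -0.33 to 0.36 for Glul, -0.21 to 0.08 for Usp2 and 0.04 to 1.27 for Arrdc2.

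**Figure D4:**
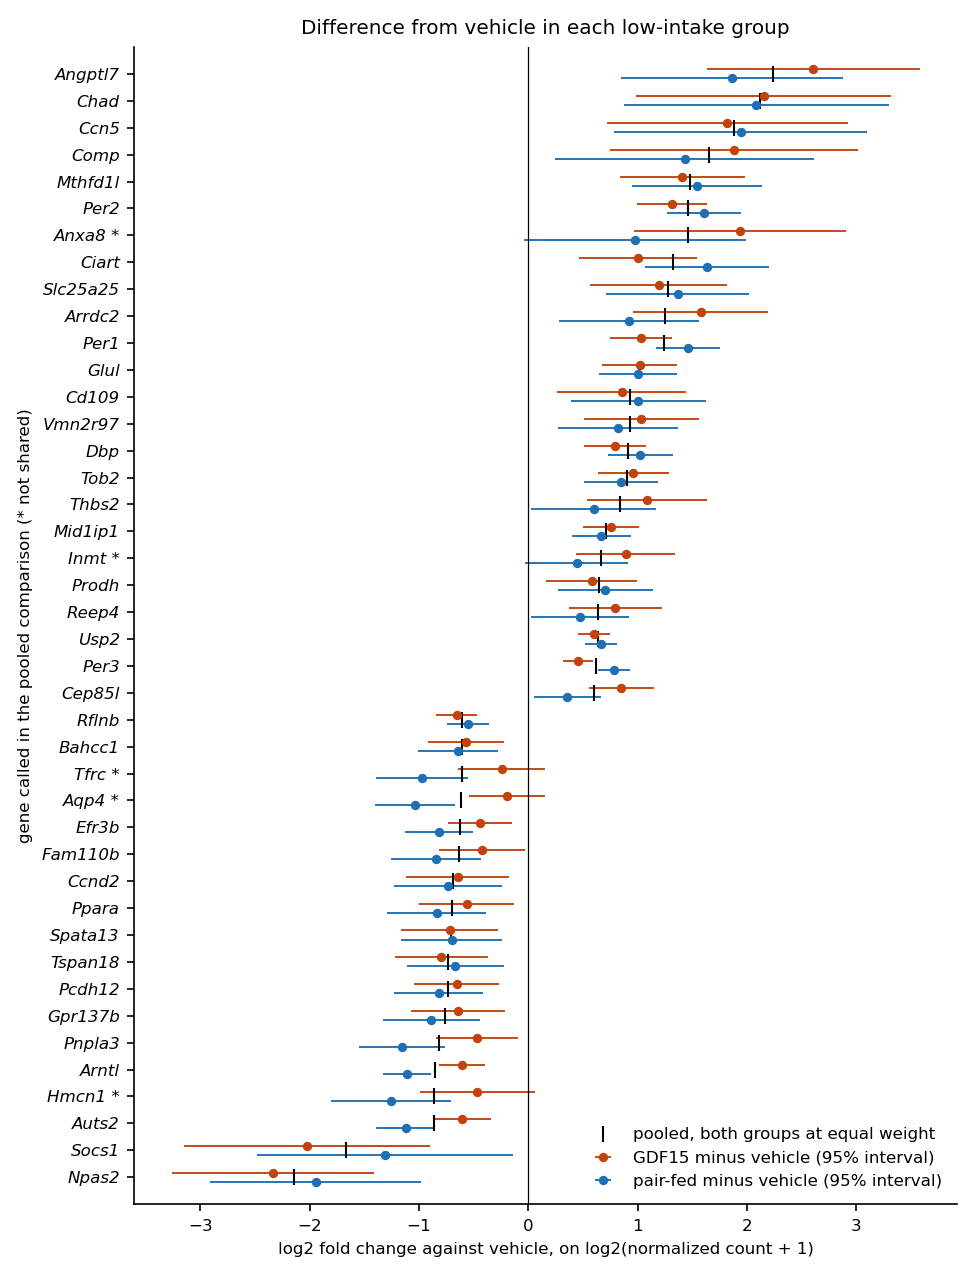
Log2 fold change against vehicle (horizontal axis, on log2(normalized count + 1)) of the 42 called genes (vertical axis) for GDF15 mice and for pair-fed mice, with 95% confidence intervals, and the pooled value as a black tick; a star marks the 5 genes that are not shared. In all 42 genes both points lie on the same side of 0, and in the starred genes the interval of 1 group reaches across 0. The genes were called on the pooled value, which favours points on the same side.

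The 5 called genes that are not shared missed the unadjusted p in 1 of the groups. Aqp4, the gene of the water channel aquaporin 4 of fast fibres, had 544, 619, 832, 488 and 528 normalized counts with vehicle, 432 to 595 (median 523) with GDF15 and 255, 429, 339, 275 and 193 with pair-feeding. GDF15 mice lay within or near the vehicle values (-0.19) and pair-fed mice below them (-1.04). Tfrc, the transferrin receptor gene, showed the same order with -0.24 and -0.97. The difference between GDF15 and pair-fed mice was 0.84 for Aqp4 and 0.73 for Tfrc (limma adjusted p = 0.0276 and 0.0812). Hmcn1, the gene of the matrix protein hemicentin 1, had -0.46 with GDF15 and -1.25 with pair-feeding, while Anxa8 (1.94 and 0.98) and Inmt (0.89 and 0.44) had the larger value with GDF15. For these 3 genes the difference between the groups did not pass. With single libraries left out the pooled call was lost in 5 of 16 cases for Aqp4 (vehicle mice 2 and 3, GDF15 mouse 3 and pair-fed mice 2 and 6), 12 for Tfrc, 5 for Hmcn1, 10 for Anxa8 and 13 for Inmt.

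The remaining pathway lists held 0 to 4 genes each that passed the adjusted p. On the FOXO and atrophy list, 0 of 25 tested genes were called and 4 were higher by adjusted p alone, beside 1.53% of all tested genes: Klf15 (0.38), Ube4b (0.29), Gabarapl1 (0.21) and Zfand5 (0.20). Against vehicle, Gabarapl1 had 0.02 with GDF15 and 0.40 with pair-feeding, and Zfand5 had 0.02 and 0.38. The difference between the groups was -0.38 and -0.36 (limma adjusted p = 0.00808 and 0.00718). The ubiquitin ligase genes best known for muscle wasting did not pass, Trim63 with 0.05 (95% interval -0.15 to 0.25) and Fbxo32 with -0.07 (95% interval -0.33 to 0.18), and the median of the list was 0.06.

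In glucose use, 3 of 27 tested genes were higher and 1 lower by adjusted p, beside the same 1.53% and 1.6% of all tested genes: the hexokinase gene Hk2 (0.23), Pfkfb4 (0.26) and Pfkm (0.13) against the pyruvate carrier gene Mpc2 (-0.18). The glycogen list had 16 of 19 genes on the higher side with a median of 0.10, and Gyg, for glycogenin, passed with 0.12. Of the 19 immediate early genes 16 were on the higher side (median 0.23) and Jun passed with 0.40. The polyamine list had 9 of 11 on the higher side (median 0.21), with Srm, for spermidine synthase, passing at 0.33. By adjusted p, the mTORC1 list gave 1 of 16 (Eif4ebp1, 0.26), the ATF4 list 2 of 22 (Herpud1 0.18 and Cebpg -0.24). The myostatin and activin list gave 2 of 14 (Acvr1b 0.44 and Smad3 -0.37) and the fast-fibre list 1 of 13 (Myh1, the myosin heavy chain IIx gene, -0.48). The slow-fibre, denervation, heat shock and interferon lists gave 0 of 11, 15, 19 and 21, with medians of 0.21, 0.14, -0.11 and 0.05. Against 3.12% over all tested genes, a single gene on lists of this size is close to the background.

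**Figure D5:**
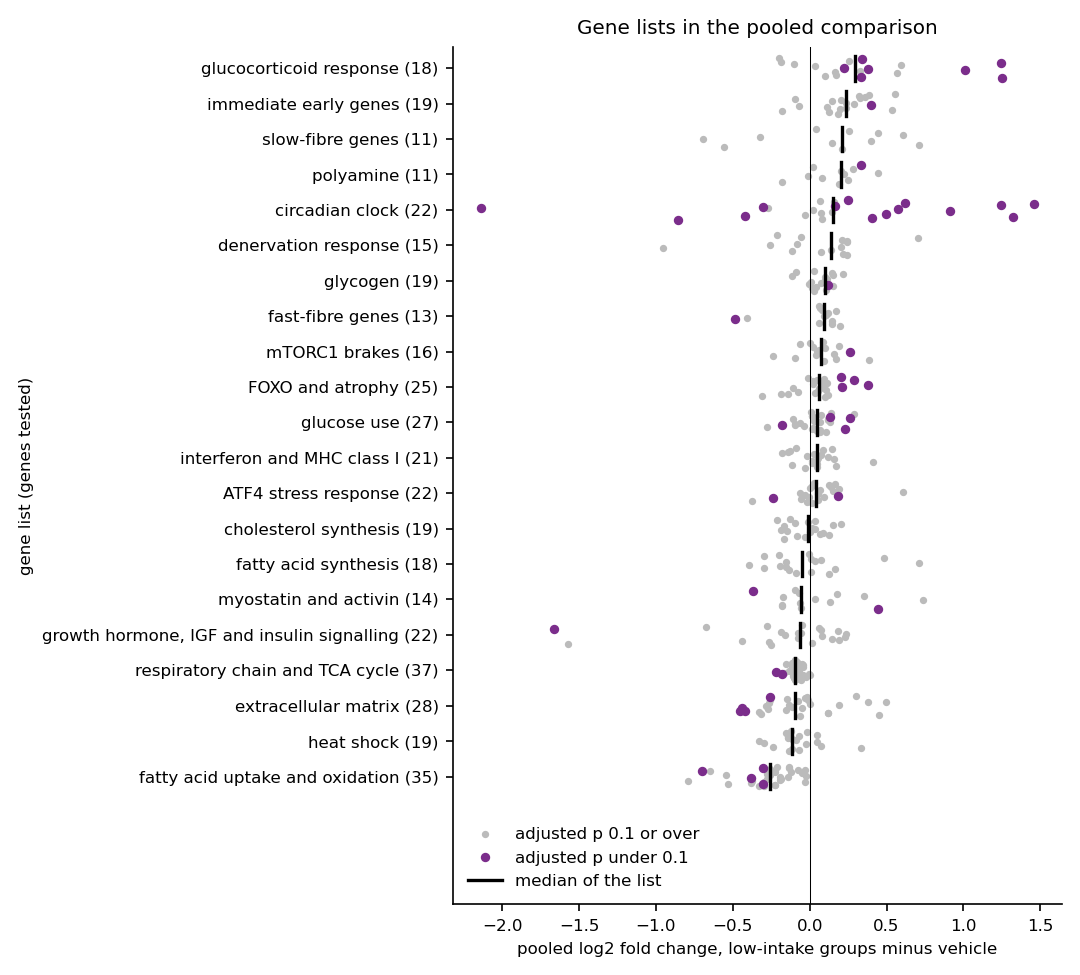
Pooled log2 fold change (horizontal axis, low-intake groups minus vehicle) of each tested gene of 21 lists (vertical axis, number tested in brackets), with genes of adjusted p under 0.1 in purple, the others in grey, and the list's median as a black line. The clock list spreads widest to both sides, glucocorticoid genes lie mostly to the right, and all 35 fatty acid uptake and oxidation genes lie to the left of 0.

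Markers of other cells gave no call. Adipocyte markers had a median pooled log2 fold change of 0.31 with sums of 2337 to 2565 normalized counts in vehicle and 2013 to 3827 in low-intake libraries. Fibroblast markers had 0.16 (2435 to 4296 and 2607 to 5627), macrophage markers 0.04 (287 to 508 and 218 to 588), Schwann cell markers -0.03 (1003 to 1507 and 711 to 1720.2), smooth muscle markers -0.08 (1589 to 2157 and 1301 to 2151) and satellite cell markers -0.02 (86.9 to 146 and 88.6 to 127). Of the T cell markers 1 of 5 was in the table, and it was below the minimum for testing. Red blood cell markers, 3 of 5 in the table, had the largest median of the marker lists, 0.65 pooled, 1.24 with GDF15 and 0.07 with pair-feeding, and 0 of the 3 passed. They summed to 259.5 to 3146 in vehicle and to 79.9 to 3743 in low-intake libraries. Within fibres, Mb, the myoglobin gene, had -0.40 and Myh4, the IIb myosin gene, 0.09 (limma adjusted p = 0.0975 and 0.598).

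Just outside the fold threshold stood, by adjusted p, Kdr at -0.58, Tspan4 at 0.56, Arhgap24 at -0.54, Ppp1r27 at -0.53 and Hlf at 0.58. Just inside it stood Rflnb at -0.60, Bahcc1 at -0.60, Cep85l at 0.61, Aqp4 and Tfrc at -0.61 and Per3 at 0.62. Gdf15 and Fgf21, hormones that muscle can itself release under stress, have no row in the table and were not analysed here.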

How the data were processed

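RNA of tibialis anterior muscle was sequenced in 16 mice (5 vehicle, 6 GDF15, 5 pair-fed), grouped by the labels. Per the submitters' processing notes and the study's methods, reads were trimmed with Trim Galore, quantified with Salmon on mm10 and normalized with DESeq2 by the authors; versions and the strand setting are not given in the sources used here. The deposited values are log2 expression after variance stabilization, although described as normalized counts, and were transformed back to normalized counts, from whose step sizes the depth was estimated. Log2(normalized count + 1) was then fitted with limma 3.58.1 in R 4.3.3 (lmFit, contrasts, eBayes with trend, 3 group means) for the 11841 of 14538 genes that averaged 10 normalized counts or more. Benjamini-Hochberg adjustment ran over all tested genes, with calls at adjusted p under 0.1 and a log2 fold change above 0.6. Summaries used Python 3.11.15, pandas 2.3.3, numpy 2.4.6 and scipy 1.17.1. The fit was tested on simulated data. P-values measure the spread between mice, and the depth, 9502465 to 15057580 reads, leaves genes near the minimum count with wide intervals.

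Genes were named by rule: the 10 higher and 10 lower shared genes with the smallest adjusted p, every called gene of a pathway list, shared genes that differ between GDF15 and pair-fed mice, and the 5 called genes with the smallest adjusted p that are not shared; other names were chosen after their values were seen. The members, the 21 pathway lists and the 10 marker lists were chosen with earlier results of these data known. Alternatives covered scale, filter, scaling, weights, covariates, thresholds, a block on replicate number and leaving out each library. Gene positions are from GENCODE vM21 on GRCm38 (14282 symbols found), promoters from RefSeq on GRCm38.p6.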

Additional observations from a re-analysis of the deposited data

Results flagged for a closer look

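In 5 of 126 sets of values (a gene in a group of mice), the lowest or highest mouse stood far from the others by Dixon's 95% criterion, which chance meets in about 1 of 20. Mthfd1l was low in pair-fed mouse 4 at 13.0 normalized counts, which still exceeded every vehicle mouse. Ciart was low in GDF15 mouse 4 at 36.7, inside the vehicle range. Ccn5 was low in GDF15 mouse 3 at 2.32. Prodh in pair-fed mouse 4 stood apart at 77.9, and Anxa8 in pair-fed mouse 6 stood apart at 33.1.

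The difference between GDF15 and pair-fed mice passed for 6 of the 42 genes called against vehicle, beside 2.17% of all tested genes. It was 0.84 on the log2 scale for Aqp4 (adjusted p = 0.0276 from limma), 0.50 for Arntl (0.0276), -0.33 for Per3 (0.0297), 0.52 for Auts2 (0.0577), 0.68 for Pnpla3 (0.0789) and 0.73 for Tfrc (0.0812). In each, the pair-fed mice lay farther from vehicle than the GDF15 mice. Of these, 4 are shared genes, a count that was 0 without the 4 libraries highest in tendon markers and 2 to 5 with single libraries left out.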

How the results depend on the processing

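The counts of called genes were 42 in the pooled comparison, 36 for GDF15, 97 for pair-feeding and 37 shared, with 4 shared genes that differ between GDF15 and pair-fed mice. With single libraries left out they ranged from 22 to 51, from 21 to 38, from 60 to 157, from 22 to 46 and from 2 to 5. On the deposited log2 values they were 8, 9, 17, 8 and 0. At an adjusted p under 0.05 and a log2 fold change above 1 the first 4 counts were 10, 8, 15 and 10, at an adjusted p under 0.05 with the fold threshold kept 25, 23, 56 and 24, and at an adjusted p under 0.1 with no fold threshold 370, 91, 754 and 298. Asking for a call in each single comparison left 13 shared genes. With log2 depth as a covariate GDF15 gave 19 and 1 shared gene differed between the groups. Chosen after seeing the data, the tendon covariate gave 26 pooled calls, 20 of them among the main 42. Without the 4 libraries highest in tendon markers 24 pooled, 33 pair-fed and 23 shared genes passed. Of these, 20, 25 and 19 were in the main counts, and 0 of the 23 shared genes differed between the groups. The causes were not tested. No gene called in the pooled comparison reversed its sign in 1374 gene-by-alternative values, of which 993 kept the call and 381 lost it. Per2, Per1, Glul, Angptl7, Slc25a25 and Arrdc2 were called under all alternatives. The share of squared distance kept its direction and its side of 0.05, with exact permutation p-values from 0.00137 to 0.0245.

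Same-numbered mice did not resemble each other in expression. Over 14 such pairs the correlation of deviations from the group means ran from -0.0994 to 0.0665, with 0 pairs over 0.1. Of 16 libraries, 1 correlated best with its own number. Whether same-numbered mice were matched for food intake cannot be read from these correlations. With the replicate number as a block the counts were 33, 20, 81, 32 and 3, and 26 of the 37 shared genes were still called.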

Other observations

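Several genes outside the lists differed between the low-intake groups and vehicle by small amounts that passed the adjusted p but not the fold threshold; they were picked after their values were seen. Genes of the fibre's contractile and membrane scaffold went both ways: Tcap, for the Z-disc protein telethonin, had a pooled log2 fold change of 0.21 (limma adjusted p = 0.0137) and Fhl3 of 0.34, while Speg, for a kinase of the triad, had -0.26, Slmap -0.29 and Syne1, for the nuclear envelope protein nesprin-1, -0.22. Mlxip, which encodes the glucose-responsive factor MondoA, had -0.31 (limma adjusted p = 0.00492). Angpt1, for the vessel-stabilizing ligand angiopoietin 1, had -0.46 and Timp3, for an inhibitor of matrix proteases, 0.33 (adjusted p = 0.0142 and 0.00397 from limma). The beta-arrestin gene Arrb1 had -0.39 and the DNA methyltransferase gene Dnmt3a -0.29.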
